A study of Mus musculus with 13 samples.

Results

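The MHC class II genes examined here were H2-Aa, H2-Ab1, H2-Eb1, Cd74, Ciita, H2-DMa and H2-DMb1, 7 of the 49315 genes counted in each library, chosen by name. RNA-Seq counts were available for whole midbrain homogenates of 13 male mice aged 8 to 12 weeks on a C57BL/6J background, with 1 mouse per library. All mice carried Ripk3fl/fl. Those with Aldh1l1-Cre/ERT2 (Ripk3fl/fl Aldh1l1Cre+, here Cre+) delete Ripk3, the gene of a kinase of inflammatory and cell death signalling, in astrocytes, and Cre- littermates do not. The paper states tamoxifen (60 mg/kg, 5 days) for animals with Aldh1l1-Cre/ERT2. It does not say whether Cre- littermates received it, so tamoxifen may differ along with the genotype. Mice then received MPTP, a toxin of dopaminergic neurons (20 mg/kg intraperitoneally, 5 daily doses), or saline, and tissue was taken 3 days later after perfusion. Saline was given to 3 Cre- and 3 Cre+ mice, and MPTP to 3 Cre- and 4 Cre+ mice. All 7 genes were detected in every library and passed the filter on low counts, as did 19360 genes in all.

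MHC class II molecules present peptides from the endosome to CD4+ T cells. H2-Aa and H2-Ab1 encode the alpha and beta chains of the I-A molecule, and H2-Eb1 encodes the beta chain of I-E. Cd74 encodes the invariant chain, which holds new class II molecules and guides them to the endosome, and H2-DMa and H2-DMb1 encode the subunits of H2-M, which loads the peptide there. Ciita encodes the coactivator that switches this set on through the X and Y boxes of the promoters, where RFX and NF-Y bind, and interferon-gamma induces it, with IRF1 among the factors that act on it. In brain tissue class II is mostly carried by border-associated macrophages, dendritic cells and B cells, and microglia and infiltrating myeloid cells gain it in inflammation.

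The library of Cre- MPTP replicate 1 stood apart, with 11489150 counts against 17713289 to 29397278 in the other 12, 21101 detected genes against 25432 to 27186, and a TMM scaling factor of 0.804 against 1.005 to 1.042. Cre+ MPTP replicate 4 also stood apart, with 6831 CPM (counts per 1000000 counts, TMM-scaled) over 7 heart and skeletal muscle genes against 11.8 to 159 elsewhere. Values without these libraries stand beside the results that turned on them. Ripk3 had 4 to 11 counts per library in Cre- Saline, 6 to 10 in Cre+ Saline, 6 to 40 in Cre- MPTP and 4 to 19 in Cre+ MPTP, so its level did not separate the genotypes. The labelled tissue was checked with 8 dopaminergic neuron genes, which passed the filter in full and summed to 255 to 366 CPM per library. Gene by gene, Cre- MPTP replicate 1 differed from the other 12 libraries. It was low in Slc6a3 (10.8 CPM against 42.3 to 77.4). It was high in En1 (61.0 against 11.4 to 18.0) and Pitx3 (11.1 against 0.285 to 1.28), and Th alone of the 8 lay within their range.

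Of the 7 genes, 5 lie on chromosome 17 of GRCm38, within the mouse MHC. H2-Aa spans 34282744 to 34287827 on the minus strand. On the plus strand lie H2-DMa (34135182 to 34139101), H2-DMb1 (34153072 to 34160230), H2-Ab1 (34263209 to 34269418) and H2-Eb1 (34305877 to 34316199). Ciita lies on chromosome 16 (10488178 to 10527564); Cd74 lies on another chromosome. Exons of Ciita share 111 bases, 2.11% of its exonic length, with Dexi on the opposite strand, which had 708 to 2383 counts per library. H2-DMb1 has the near-identical neighbour H2-DMb2, so their counts depend on how shared reads were treated.

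RefSeq promoter sequences (GRCm38.p6, 250 bases before to 50 after a start) were at hand for 4 of the 7 genes. They were searched for the letters CTNNNAAC, of the X box kind, and GATTGG, of the Y box, on both strands. The letters were written with these promoters in view, so their presence there is a description. The windows below are shown because the X and Y letters, in capitals, are what the genes have in common; each lies before the gene start used in counting, is printed 5′ to 3′ in the direction of transcription, and comes with that of H2-Ob, the beta chain of H2-O, an inhibitor of H2-M.
H2-Aa (chr17:34287847-34287927, minus strand): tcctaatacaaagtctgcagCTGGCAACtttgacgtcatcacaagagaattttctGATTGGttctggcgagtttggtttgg
H2-Eb1 (chr17:34305753-34305832, plus strand): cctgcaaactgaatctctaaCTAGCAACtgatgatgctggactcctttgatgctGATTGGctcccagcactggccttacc
H2-Ob (chr17:34238795-34238872, plus strand): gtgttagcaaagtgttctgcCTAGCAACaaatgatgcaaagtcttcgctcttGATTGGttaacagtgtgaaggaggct

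From the first X letter to the first Y letter there were 35 bases in H2-Aa, 34 in H2-Eb1 and 32 in H2-Ob, and the X letters began 84, 94 and 90 bases before the RefSeq start, which is not the gene start used in counting. The X letters alone occurred in 41.1% of 32851 promoters and the Y letters alone in 16.1%. Both in the same direction, 32 to 35 bases apart, occurred in 19 promoters (0.0578%). These belonged to 17 genes, of which 5 were class II genes: H2-Aa, H2-Eb1, H2-Ob, H2-DMb1 and H2-DMb2. The range of 32 to 35 bases was itself taken from these 5 genes. Their place among the 17 was therefore set in advance and is a description only. Neither of the 2 promoter entries of H2-DMa held the pair, which says only that these letters were not in those windows.

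Class II transcripts were scarce in the midbrain. Summed over the 7 genes, they came to 15.8 to 49.6 CPM per library, with a median of 23.3 CPM. Per gene and library, counts ranged from 5 (H2-Aa in Cre- MPTP replicate 1) to 362 (Cd74 in Cre+ MPTP replicate 4), which limits the precision of every value below. Levels between genes are compared as CPM per kilobase of exon. H2-DMa had the highest median over the 13 libraries, at 3.99 CPM per kb (range 2.41 to 4.95), and Cd74 followed at 3.73 (2.23 to 9.80). Their order was not fixed, since H2-DMa was above Cd74 in 6 libraries and below it in 7. H2-Eb1 came next, with a median of 2.68 CPM per kb (1.2 to 8.06), and lay below Cd74 in 13 of 13 libraries. H2-Ab1 had a median of 1.91 CPM per kb (0.515 to 5.10) and lay below H2-Eb1 in 12 libraries. H2-DMb1 (1.39 CPM per kb, 0.959 to 2.13) and H2-Aa (1.07, 0.289 to 3.71) overlapped with each other and with H2-Ab1. The coactivator Ciita was the lowest at 0.320 CPM per kb (0.144 to 0.394), below H2-Aa in 13 of 13 libraries.

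The I-A alpha chain gene H2-Aa had 3.17, 2.34 and 2.01 CPM in the Cre- Saline libraries and 4.14, 1.59 and 3.39 CPM in the Cre+ Saline libraries. After MPTP it had 0.542, 1.47 and 0.957 CPM in Cre- mice and 1.92, 2.29, 0.71 and 6.94 CPM in Cre+ mice. All 3 Cre- MPTP values lay below all 3 Cre- Saline values, whereas the Cre+ groups overlapped and Cre+ MPTP replicates 3 and 4 held the second lowest and the highest value of the series. The beta chain gene H2-Ab1 had 3.77, 4.14 and 2.59 CPM in Cre- Saline, 4.53, 3.01 and 5.41 CPM in Cre+ Saline, 8.35, 1.74 and 1.72 CPM in Cre- MPTP and 2.03, 3.13, 0.843 and 8.32 CPM in Cre+ MPTP. Its highest values were Cre- MPTP replicate 1 and Cre+ MPTP replicate 4, and every pair of groups overlapped. The I-E beta chain gene H2-Eb1 had 4.92, 3.20 and 3.10 CPM in Cre- Saline, 5.6, 3.17 and 5.67 CPM in Cre+ Saline, 4.01, 1.62 and 1.42 CPM in Cre- MPTP and 2.40, 2.85, 2.40 and 9.54 CPM in Cre+ MPTP. Among its MPTP values only those of the same 2 libraries (4.01 and 9.54 CPM) reached its saline values (3.10 to 5.67 CPM). The rest held 1.42 to 2.85 CPM. This split was seen in the values themselves, and the share of all genes that show it is not given, so it is a description only. The gene of the partner chain of H2-Eb1, the pseudogene H2-Ea-ps, was listed at 0 counts in all 13 libraries, where C57BL/6 mice are known to lack a functional I-E alpha chain.

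The invariant chain gene Cd74 had 5.87, 7.19 and 5.26 CPM in Cre- Saline and 7.88, 5.04 and 6.82 CPM in Cre+ Saline. After MPTP it had 5.09, 4.04 and 4.52 CPM in Cre- mice and 4.32, 5.48, 3.15 and 13.8 CPM in Cre+ mice. Its Cre- MPTP values lay below the Cre- Saline values without overlap, by a narrow margin (5.09 against 5.26 CPM). The H2-M genes differed from these 4 in Cre+ MPTP replicate 4. H2-DMa had 7.90, 7.65 and 6.97 CPM in Cre- Saline, 7.02, 5.69 and 5.44 CPM in Cre+ Saline, 8.13, 3.96 and 5.55 CPM in Cre- MPTP and 6.54, 5.54, 7.14 and 6.07 CPM in Cre+ MPTP. H2-DMb1 had 2.06, 2.19 and 1.42 CPM in Cre- Saline, 2.37, 1.42 and 1.60 CPM in Cre+ Saline, 1.95, 1.74 and 2.87 CPM in Cre- MPTP and 2.88, 2.07, 2.17 and 3.17 CPM in Cre+ MPTP. For both subunits the groups overlapped in each comparison, and in Cre+ MPTP replicate 4 H2-DMa lay inside the range of its group and H2-DMb1 just above it. The coactivator gene Ciita had 0.913, 0.898 and 1.68 CPM in Cre- Saline, 1.54, 1.87 and 1.71 CPM in Cre+ Saline, 0.759, 1.27 and 1.58 CPM in Cre- MPTP and 2.07, 1.90, 1.69 and 1.72 CPM in Cre+ MPTP. With MPTP all 4 Cre+ values of Ciita lay above all 3 Cre- values, at the nearest 1.69 against 1.58 CPM, and with saline 1 Cre- library lay inside the Cre+ range.

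**Figure D1:**
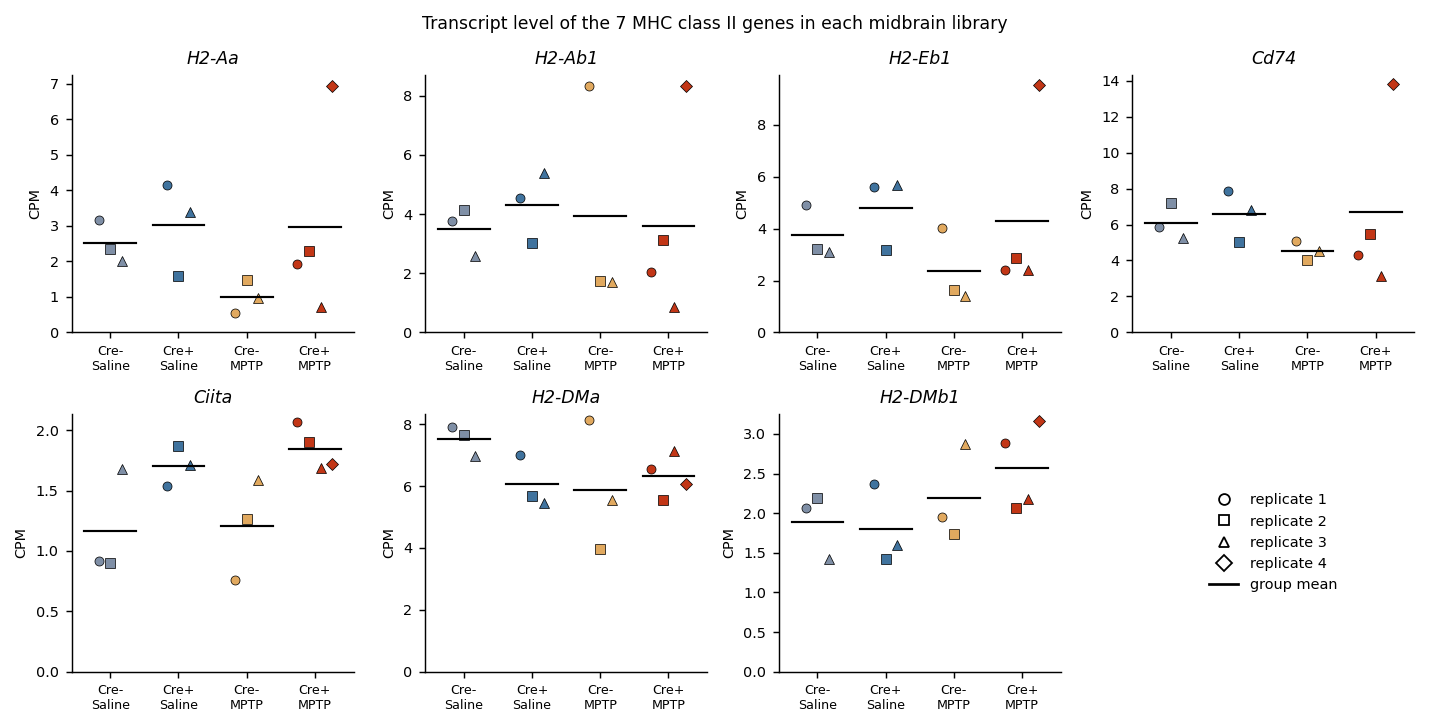
Level of each of the 7 MHC class II genes (y axis, CPM, from 0) in the 13 libraries (points, shaped by replicate number) of the 4 groups (x axis), with group means as lines. Cre+ MPTP replicate 4 (diamond) lies highest in its group for H2-Aa, H2-Ab1, H2-Eb1 and Cd74 (6.94 to 13.8 CPM) and within or near the range of the others for Ciita, H2-DMa and H2-DMb1.

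MPTP was compared with saline in Cre- mice to ask whether the toxin changes class II transcripts where astrocytes keep Ripk3. At a threshold of 0.05 on the adjusted p (edgeR quasi-likelihood test, Benjamini-Hochberg over all genes tested), 0 of the 7 genes and 3.18% of all genes tested were called. An unadjusted p under 0.05 was found for 0 of the 7 and for 15.0% of all genes tested. DESeq2 also called 0 of the 7, and limma voom with sample quality weights called 1, H2-DMa, at -0.62 (adjusted p = 0.0156). The estimates pointed down for the 2 chains H2-Aa and H2-Eb1 and for Cd74 and H2-DMa. H2-Aa had means of 0.988 ± 0.463 CPM with MPTP and 2.51 ± 0.601 CPM with saline (SD, n = 3 each). The fitted log2 change of H2-Aa was -1.28 (SE 0.678, 95% interval -2.75 to 0.20, adjusted p = 0.386). For H2-Eb1 the log2 fold change was -0.74 (SE 0.576, adjusted p = 0.542), for Cd74 -0.43 (SE 0.442, adjusted p = 0.653) and for H2-DMa -0.37 (SE 0.239, adjusted p = 0.462). H2-Ab1, Ciita and H2-DMb1 stood at 0.10, 0.09 and 0.22, with intervals on both sides of 0. The median over the 7 genes was -0.37, against 0.03 over all genes tested. Dropping Cre- MPTP replicate 1 brought this median to -0.65, and dropping replicate 2 to -0.16. CPM did not overlap between the groups for 2 of the 7 genes, H2-Aa and Cd74, both lower with MPTP, where 15.1% of all genes tested had no overlap and 8.02% were lower without overlap.

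These estimates turned on Cre- MPTP replicate 1. Without it, H2-Ab1 moved from 0.10 to -1.01 (adjusted p = 0.381) and H2-Eb1 from -0.74 to -1.29 (adjusted p = 0.181), while H2-Aa stood at -1.05 and Cd74 at -0.51. H2-DMa was then called lower at -0.65 (adjusted p = 0.0475), in a fit that called 9.38% of its genes. With Cre+ MPTP replicate 4 also left out, an alternative chosen after seeing the data that called 10% of its genes, H2-Eb1 was called lower at -1.28 (adjusted p = 0.0167) and H2-DMa was not (-0.64, adjusted p = 0.0521). The 2 remaining Cre- MPTP libraries held 8.62 and 8.87 CPM over H2-Aa, H2-Ab1, H2-Eb1 and Cd74 together, against 13 to 17.7 CPM in Cre- Saline, and the library left out held 18.0 CPM.

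In Cre+ mice, which lack Ripk3 in astrocytes, the same comparison gave 0 called genes among the 7 and 0% among all genes tested. None of the 7 had an unadjusted p under 0.05 by edgeR, where 3.47% of all genes tested did, or by DESeq2, and limma voom gave 2 such genes. Neither DESeq2 nor limma voom called any of the 7. The estimates lay between -0.26 (H2-Ab1, SE 0.678) and 0.52 (H2-DMb1, SE 0.286), with a median of 0.03 that came to -0.61 without Cre+ MPTP replicate 4 and ran from -0.14 to 0.16 without each other library. For H2-Aa the estimate was -0.03, with a 95% interval of -1.32 to 1.26. Without Cre+ MPTP replicate 4 the 4 genes high in that library moved down together, to -0.90 for H2-Aa, -1.12 for H2-Ab1, -0.92 for H2-Eb1 and -0.61 for Cd74, none of them called (adjusted p of 1). Ciita, H2-DMa and H2-DMb1 then stood at 0.14, 0.08 and 0.41.

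Cre+ and Cre- mice given MPTP were compared to ask whether loss of astrocytic Ripk3 alters class II transcripts after the toxin. None of the 7 genes was called by edgeR, DESeq2 or limma voom, where edgeR called 1.54% of all genes tested. H2-Aa came closest, with means of 2.97 ± 2.74 CPM (SD, n = 4) in Cre+ and 0.988 ± 0.463 CPM (SD, n = 3) in Cre-. Its log2 fold change was 1.53 (SE 0.650, 95% interval 0.12 to 2.94), with an unadjusted p of 0.0362 by edgeR and an adjusted p of 0.236. An unadjusted p under 0.05 was found for 19.0% of all genes tested in this comparison. H2-Eb1 stood at 0.94 (SE 0.548, adjusted p = 0.362), Cd74 at 0.57 (SE 0.418, adjusted p = 0.460), and H2-DMb1, H2-DMa and H2-Ab1 at 0.23, 0.12 and -0.06. Ciita stood at 0.57 (SE 0.301, adjusted p = 0.321), and was the 1 gene of the 7 whose CPM did not overlap, where 11.3% of all genes tested had no overlap and 6.25% were higher in Cre+ without overlap. The median over the 7 genes was 0.57, against 0.03 over all genes tested, and came to 0.16 when Cre+ MPTP replicate 4 was dropped. Without Cre+ MPTP replicate 4, H2-Aa came to 0.66, H2-Eb1 to 0.20 and Cd74 to -0.07, and Ciita kept a value of 0.60 (adjusted p = 0.443). Without Cre- MPTP replicate 1, Ciita came to 0.36, H2-Ab1 to 1.05 and H2-Eb1 to 1.5 (adjusted p = 0.234).

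Cre+ and Cre- mice were also compared with saline, where tamoxifen may differ along with the genotype. In this comparison 0 of the 7 genes and 0% of all genes tested were called. An unadjusted p under 0.05 was found for 0 of the 7 by edgeR (0.909% of all genes tested) or DESeq2, and limma voom gave 2 such genes. Estimates ranged from -0.31 (H2-DMa, SE 0.237) to 0.55 (Ciita, SE 0.315), with H2-Eb1 at 0.36, H2-Ab1 at 0.30, H2-Aa at 0.28, Cd74 at 0.11 and H2-DMb1 at -0.07. The interaction, which asks whether the response to MPTP differs between genotypes, called none of the 7 genes and 0.0103% of all genes tested, and none of the 7 had an unadjusted p under 0.05 by edgeR (5.76% of all genes tested) or DESeq2. H2-Aa had the largest interaction estimate of the 7, at 1.25 (SE 0.902, adjusted p = 0.795), and 0.38 without Cre+ MPTP replicate 4. The 2 comparisons within MPTP and within Cre- mice share the Cre- MPTP libraries, so their estimates are not independent.

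**Figure D2:**
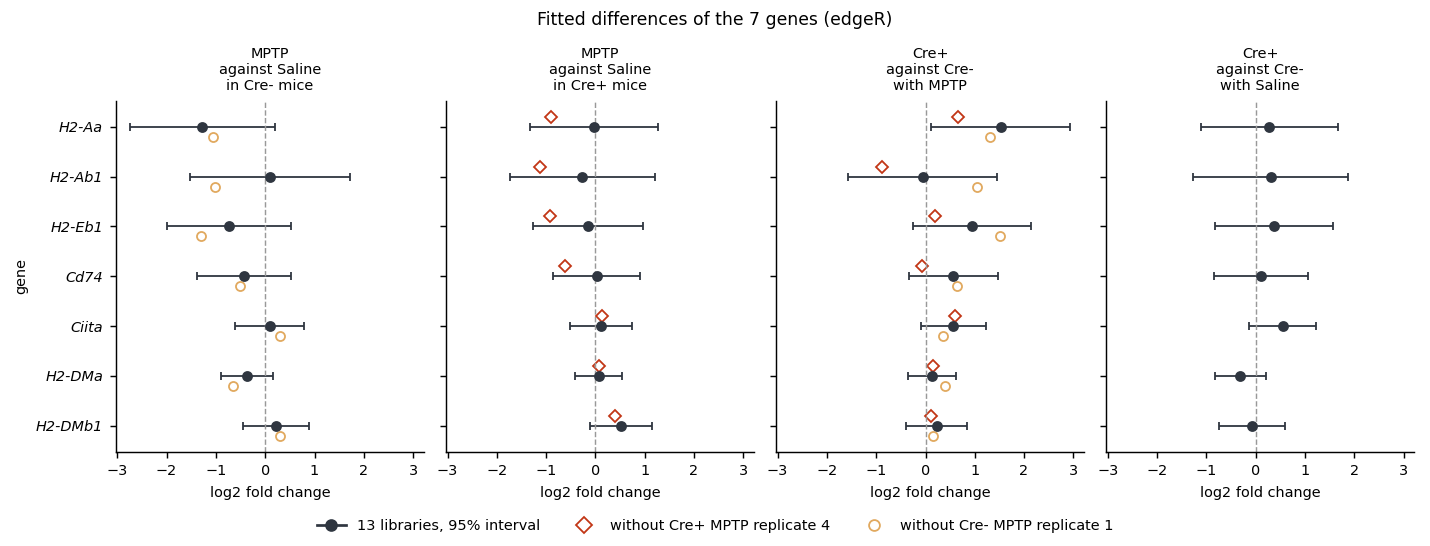
Log2 fold change (x axis) of each gene (y axis) in 4 comparisons, as fitted by edgeR over 13 libraries (filled points, with 95% intervals as bars) and without Cre+ MPTP replicate 4 (open diamonds) or Cre- MPTP replicate 1 (open circles). Of the 28 intervals, 1 leaves out 0, that of H2-Aa between genotypes with MPTP (0.12 to 2.94), and leaving out replicate 4 moves its estimate to 0.66.

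Cre+ MPTP replicate 4 was high in the 2 chains of I-A, in H2-Eb1 and in Cd74 at once. Relative to the mean of the other 3 Cre+ MPTP libraries its CPM was 4.23-fold for H2-Aa, 4.15-fold for H2-Ab1, 3.74-fold for H2-Eb1 and 3.20-fold for Cd74. It was 0.910-fold for Ciita, 0.947-fold for H2-DMa and 1.33-fold for H2-DMb1. The 4 genes summed to 38.6 CPM there, against 10.7, 13.8 and 7.10 CPM in replicates 1 to 3 and 7.10 to 22.2 CPM in the other 12 libraries. The border-associated macrophage list summed to 34.0 CPM in this library against 9.21 to 26.9 elsewhere, with Lyve1, a hyaluronan receptor of perivascular macrophages, at 3.43 CPM against 0.217 to 1.81, and Cbr2 at 2.98 against 0.650 to 1.94 CPM. These are the most extreme of the 8 genes, of which 3 were highest in this library and 5 were not. Of the dendritic cell list, Cd209a (0.878 CPM against 0 to 0.794) and Clec9a (0.801 CPM against 0.267 to 0.767) were highest in this library. The other genes of that list were not, and Flt3 (29.6 CPM) and Zbtb46 (10.5 CPM) made up most of its sum. The summed dendritic cell list, which mainly followed these 2 genes, lay within the range of the other libraries (43.1 CPM against 23.7 to 47.9). The summed microglia list did so too (287 CPM against 172 to 318). The muscle genes stood far outside it, with Myh6, a heart muscle myosin, at 3296 CPM against 3.14 to 78.3, and Aqp1, a water channel, was at 43.0 CPM against 0.256 to 1.45. The part of these transcripts in the class II values was not tested. The library with the next highest muscle sum, Cre+ Saline replicate 1 at 159 CPM, also had the next highest sum of the 4 class II genes, at 22.2 CPM, with Cre+ Saline replicate 3 (20.5 CPM of muscle genes) close to it at 21.3 CPM. Further down the order was not kept. Cre+ MPTP replicate 2 came next in muscle sum but had 13.8 CPM of the 4 class II genes. Cre- MPTP replicate 1 had the lowest muscle sum, whereas Cre+ MPTP replicate 3 had the lowest class II sum (7.10 CPM).

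**Figure D3:**
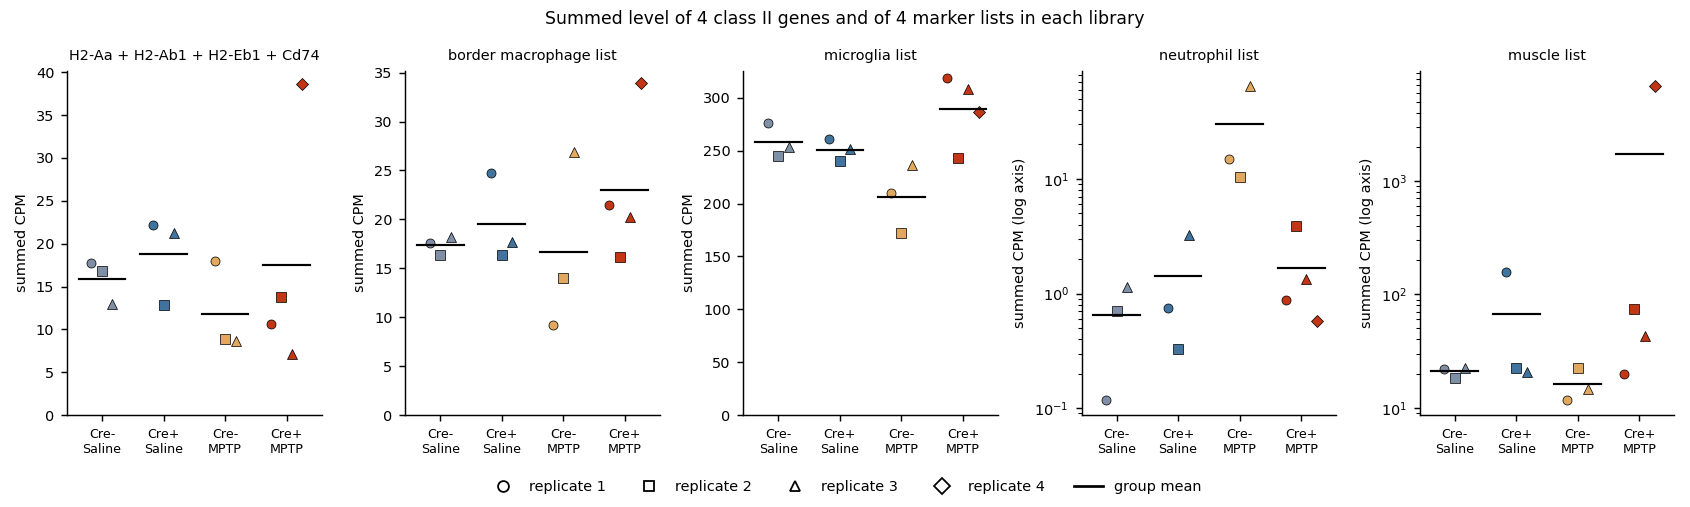
Summed CPM (y axes, logarithmic for the last pair of panels) of H2-Aa, H2-Ab1, H2-Eb1 and Cd74 and of the border macrophage, microglia, neutrophil and muscle lists in the 13 libraries (points, shaped by replicate number) of the 4 groups (x axis), with group means as lines. Cre+ MPTP replicate 4 is highest for the 4 class II genes (38.6 CPM), the border macrophage list (34.0 CPM) and the muscle list (6831 CPM), and the neutrophil list is highest in Cre- MPTP (10.4 to 64.2 CPM).

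The chains of I-A were counted in steady proportion in all libraries but 1. H2-Aa took 34.5% to 48.6% of the counts of H2-Aa and H2-Ab1 together in 12 libraries, with a median of 44.6%. In Cre+ MPTP replicate 4, where both were high, the share was 45.5% (182 of 400 counts, 95% Wilson interval 40.7 to 50.4%). In Cre- MPTP replicate 1 it was 6.10% (5 of 82 counts, 95% Wilson interval 2.63 to 13.5%), and the lowest bound of the other 12 libraries was 26.2%. The CPM of H2-Aa in that library was the lowest of the series. That of H2-Ab1 was the highest by a narrow margin, at 8.35 CPM against 8.32 CPM in Cre+ MPTP replicate 4. These intervals cover counting error only, since PCR copies of a molecule were not marked.

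**Figure D4:**
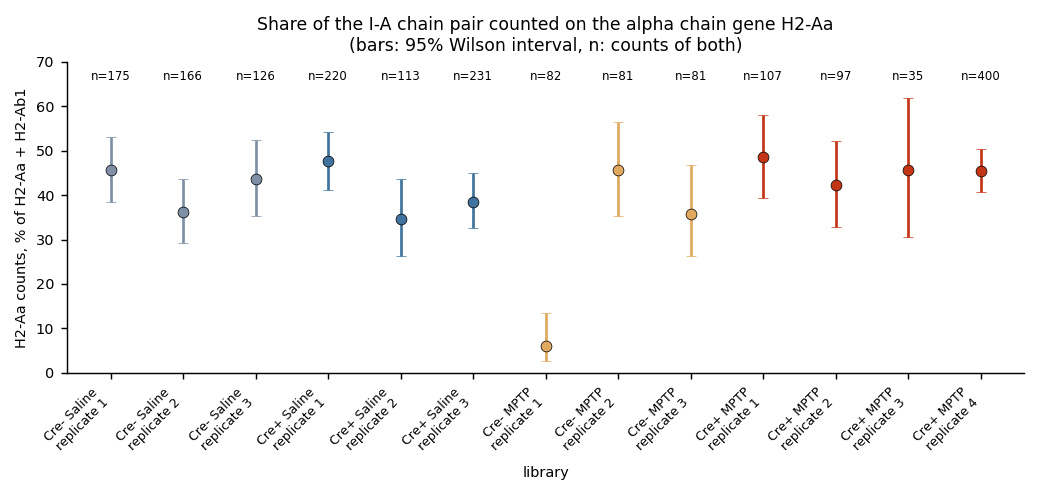
Counts of H2-Aa as a percentage of the counts of H2-Aa and H2-Ab1 (y axis) in each library (x axis), with 95% Wilson intervals as bars and the count of both genes as n. In 12 libraries the share lies between 34.5% and 48.6%, and in Cre- MPTP replicate 1 it is 6.10%.

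The other chains and subunits of the class II region were near the limit of detection. Of 5 such genes only H2-Ob passed the filter on low counts, and the 5 together summed to 0.325 to 1.95 CPM per library. H2-Ob had 19, 12 and 16 counts in Cre- Saline, 16, 12 and 12 in Cre+ Saline, 0, 1 and 7 in Cre- MPTP and 12, 13, 10 and 21 in Cre+ MPTP. Its Cre- MPTP libraries lay below every other library. The estimate for H2-Ob was -2.34 on the log2 scale (SE 0.619, adjusted p = 0.0691) for MPTP in Cre- mice and 2.34 (SE 0.599, adjusted p = 0.0888) for Cre+ against Cre- with MPTP, short of the threshold in both. DESeq2 and limma voom called it in both comparisons, at -2.34 and -1.86 for the former and 2.33 and 1.91 for the latter, where they called 5.87% and 13.6% of genes in the former and 4.31% and 6.32% in the latter. Without Cre- MPTP replicate 1 edgeR called it for MPTP in Cre- mice (-2.05, adjusted p = 0.0460), and without replicate 3 in both comparisons (-4.17 and 4.18).

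The factors that bind class II promoters showed no called change in any comparison (0 of 7). Rfx5, the subunit of RFX that contacts the X box, stood at -0.07 (SE 0.152, adjusted p = 0.843) for MPTP in Cre- mice and at 0.11 (SE 0.142, adjusted p = 0.656) for Cre+ against Cre- with MPTP. Rfxap, another RFX subunit, had the estimates farthest from 0, at 1.15 (SE 0.484, adjusted p = 0.298) and -1.34 (SE 0.446, adjusted p = 0.181), and these rested on Cre- MPTP replicate 1, with 156 CPM against 27.4 to 36.4 CPM in the other 12 libraries. Without that library its estimates were -0.07 for MPTP in Cre- mice and -0.12 between genotypes. Rfxank, the third RFX subunit, had 17.2 to 20.3 CPM as group means, and Nfya, a subunit of NF-Y, 17.1 to 19.9 CPM.

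Upstream of Ciita, the transcript of interferon-gamma itself, Ifng, was at 0 counts in all 13 libraries, which allows up to 0.0990 to 0.325 CPM per library (3 counts). Irf1, a factor that acts on the inducible Ciita promoter, stood at 0.74 (SE 0.202, adjusted p = 0.0803) in Cre- mice, with 11.4 to 13.5 CPM after MPTP against 6.33 to 9.37 CPM with saline. Between genotypes with MPTP it stood at -0.58 (SE 0.187, adjusted p = 0.175). DESeq2 called Irf1 for MPTP in Cre- mice (0.77). The receptor gene Ifngr1 stood at 0.29 (SE 0.178, adjusted p = 0.435) in Cre- mice. The median of the 8 tested genes of the interferon-gamma to CIITA path was 0.62 for MPTP in Cre- mice and 0.38 in Cre+ mice, and dropping the library that stood apart in each brought these to 0.35 and 0.24.

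Downstream of transcription, none of the 6 genes for the proteases and the reductase of the class II pathway was called in any comparison. Ifi30, the lysosomal thiol reductase, stood at 0.81 (SE 0.349, adjusted p = 0.305) for MPTP in Cre- mice and at 0.95 (SE 0.334) in Cre+ mice, without overlap of the groups in either, where 7.11% of all genes tested were higher without overlap in Cre- mice and 5.06% (9.66% in either direction) in Cre+ mice. Ctsl, a cathepsin that trims the invariant chain in thymic epithelium, stood at -0.43 (SE 0.201, adjusted p = 0.269) for Cre+ against Cre- with MPTP. Of the 6 genes for costimulation and class II turnover, 5 were tested and 1 was called, Icosl, a ligand of T cell costimulation. Icosl had 4.56, 4.69 and 6.46 CPM in Cre- Saline and 8.35, 10.1 and 9.77 CPM in Cre- MPTP, a rise of 0.85 on the log2 scale (SE 0.188, adjusted p = 0.0274). The call of Icosl was lost when only the 2 groups compared were fitted (adjusted p = 0.426) and when the filter on low counts was dropped (0.127), and also without Cre- Saline replicate 1 (0.117) or 2 (0.173) and without Cre- MPTP replicate 2 (0.0683) or 3 (0.0713). The estimates of Icosl were 0.49 (SE 0.177) for MPTP in Cre+ mice and -0.48 (SE 0.173, adjusted p = 0.198) between genotypes with MPTP. Cd40, a costimulatory receptor, had group means of 0.745 to 1.22 CPM and no called change.

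The markers of cells that carry class II moved unevenly beside these values. Of 8 border-associated macrophage genes 1 was called, Mrc1, a mannose receptor, which fell by 1.34 on the log2 scale with MPTP in Cre- mice (SE 0.299, adjusted p = 0.0280) and was higher in Cre+ than in Cre- mice with MPTP, by 1.70 (SE 0.288, adjusted p = 0.0154). Of 8 dendritic cell genes 5 were tested and 1 was called, the lectin gene Clec10a, which fell by 2.60 (SE 0.433, adjusted p = 0.00506) and was higher in Cre+ mice with MPTP by 2.06 (SE 0.423, adjusted p = 0.0345). Clec10a had only 0.119 to 0.217 CPM per library in Cre- MPTP and 0.504 to 1.39 CPM elsewhere. Of 8 microglia genes 2 were called, P2ry12 and Siglech, which fell with MPTP in Cre- mice by 2.79 (SE 0.199, adjusted p = 0.000104) and 2.74 (SE 0.396, adjusted p = 0.00253) and were higher in Cre+ mice given MPTP by 2.12 (SE 0.188, adjusted p = 0.00142) and 2.75 (SE 0.384, adjusted p = 0.00725), while Tmem119, Csf1r and Cx3cr1 were not called. Among all genes tested, 0.956% were called lower with MPTP in Cre- mice and 0.517% higher in Cre+ mice given MPTP. All 4 marker genes were again called for MPTP in Cre- mice when Cre- MPTP replicate 1 was left out. The MPTP call of Mrc1 did not hold when Cre- Saline replicate 1, 2 or 3 or Cre- MPTP replicate 2 was dropped (adjusted p = 0.0585 to 0.115), nor its genotype call when Cre+ MPTP replicate 1 or 3 was (0.0584 and 0.0508). For Clec10a the genotype call ended on dropping replicate 1, 3 or 4 of Cre+ MPTP or replicate 3 of Cre- MPTP (0.0522 to 0.0908), and without the filter on low counts (0.0679). When only the 2 groups compared were fitted, P2ry12 alone of the 4 was still called for MPTP in Cre- mice (adjusted p = 0.0106, against 0.0836 to 0.182 for the others), and none of the 4 between genotypes (0.185 to 0.281). B and T cell genes gave no call, with 4 of 7 genes tested in each list. Among the T cell genes Cd3d was at 0 to 0.22 CPM, but Cd3e reached 0.859 CPM and Cd4 1.17 CPM. The B cell gene Ms4a1 was at 0 to 0.22 CPM. Neutrophil genes went the other way, with 4 of 7 called higher with MPTP in Cre- mice, against 2.23% of all genes tested, and with 1 called when only the 2 groups were fitted or when Cre- Saline replicate 1 or 2 was dropped, and 2 when Cre- Saline replicate 3 or Cre- MPTP replicate 3 was. Summed levels in Cre- Saline and Cre- MPTP were 16.4 to 18.2 and 9.21 to 26.9 CPM for the border macrophage list, 36.7 to 44.5 and 23.7 to 38.3 CPM for the dendritic list, and 245 to 276 and 172 to 237 CPM for the microglia list. The dendritic sum was made up mostly of Flt3 and Zbtb46. The monocyte list held 6 genes, of which 4 were tested. For the toxin in Cre- mice, 2 of them rose past the threshold, with the smallest adjusted p for Chil3 (edgeR, 0.00374). Chil3 had 1.58 to 9.87 CPM in Cre- MPTP against 0 to 0.117 CPM in Cre- Saline. Between genotypes with MPTP, Chil3 was the 1 monocyte gene called, lower in Cre+ (adjusted p = 0.0325). Whether these monocyte calls held under the alternatives is not given here. The part of these cells in the class II values was not tested, and in whole tissue fewer cells of a type and less RNA per cell cannot be told apart.

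The genes most alike in pattern were sought by Pearson correlation of log2 CPM with the mean of the standardised values of H2-Aa, H2-Ab1, H2-Eb1 and Cd74 over the 13 libraries. Echdc3 (r = 0.864), Fbxl22 (0.861), Chchd3 (0.860), Me3 (0.855) and Tcea3 (0.846) came first. All 5 were highest in Cre+ MPTP replicate 4, such as Tcea3 at 7.40 CPM against 0.363 to 1.48 CPM elsewhere. Without that library r was 0.737 to 0.755 for the 5 genes. The points share that library and those of 4 groups, so these values describe the ranking and are given without a p.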

How the data were processed

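Total RNA of whole midbrain was sequenced from stranded libraries of separate mice. The authors used Trimmomatic 0.36 for trimming, STAR 2.5.2b for alignment (GRCm38) and featureCounts (Subread 1.5.2) for uniquely assigned reads, and deposited the raw counts, unnormalized. The strand setting of the counting is not given in the sources used here. Libraries were grouped from the labels (genotype, treatment). Symbols were found for 48970 of 49315 genes.

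Genes with 10 or more counts in 3 or more libraries were tested in edgeR 4.0.16 (R 4.3.3), using TMM factors, a term for each of the 4 groups, the quasi-likelihood test in 5 contrasts and Benjamini-Hochberg adjustment within each (threshold 0.05). CPM are TMM-scaled. A count of 0 was read as allowing 3 counts. Alternatives were DESeq2 1.42.0, limma 3.58.1 voom with sample quality weights, the 2 groups alone, RLE factors, other filters, a replicate block and leaving out each library in turn. Dropping both libraries that stood apart was added after the data were seen. The fits were tested on simulated data.

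The members and lists were chosen with earlier results of these data known, and the muscle list after its values were seen. From each pathway list the text names the genes called in a comparison (at most 4, by absolute log2 fold change) or, where none was called, the one with the smallest p, and always Irf1, Ifngr1 and Rfx5. Some genes of the lists are not reported here. Other genes named, markers included, were chosen after their values were seen.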

Additional observations from a re-analysis of the deposited data

Results flagged for a closer look

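H2-Eb1 in Cre+ MPTP replicate 4 stood at 9.54 CPM, against 2.40 to 2.85 CPM in the other 3 libraries of its group. It was flagged because its gap to the nearest library took up 0.936 of the group's range, above Dixon's 95% critical value for 4 samples. Among 20 such tests of single genes or sums in the Cre+ MPTP group it was the 1 past the critical value. Chance takes a single test past this value in about 1 in 20 groups. The 20 tests used the same 4 libraries and were not independent, so their count cannot be set against that rate. In the same library the ratios were 0.746 for H2-Aa, 0.694 for H2-Ab1, 0.781 for Cd74 and 0.789 for the 4 genes summed.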

How the results depend on the processing

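The count of called class II genes was 0 of 7 in every comparison and under every alternative, except for MPTP in Cre- mice. There it was 1 under limma voom (H2-DMa) and 1 with Cre- MPTP replicate 1 and Cre+ MPTP replicate 4 both left out (H2-Eb1, -1.28, adjusted p = 0.0167), and 0 to 1 when each library was left out in turn (H2-DMa, without Cre- MPTP replicate 1). Of 35 estimates (7 genes in 5 comparisons), 26 kept their sign under each of the 8 alternatives other than leaving out a single library, and 17 without each library in turn. The interaction could not be fitted on 2 groups alone.

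Signs that turned are given as log2 values, and the cause was not tested. For H2-Ab1 they were -1.11 (limma voom), -0.0758 (replicate block) and -0.999 (both libraries out) for MPTP in Cre- mice, 0.34 (limma voom) and 0.19 (both out) between genotypes with MPTP, and 0.14 (limma voom) for the interaction. The interaction of H2-Eb1 was -0.11 with the replicate block. For Cd74 they were -0.38 (limma voom), -0.62 (replicate block) and -0.61 (both out) for MPTP in Cre+ mice, -0.0895 (replicate block) and -0.000405 (both out) between genotypes with MPTP, -0.0334 (limma voom) between genotypes with saline, and -0.20 (replicate block) and -0.11 (both out) for the interaction. The interaction of Ciita was -0.0392 (DESeq2), -0.38 (limma voom), -0.00101 (RLE) and -0.15 (both out). H2-Ob with saline was 0.0152 (limma voom). For MPTP in Cre- mice Rfxap was -0.0579 (both out) and Rfx5 0.0274 (limma voom) and 0.0731 (both out), and Rfx5 between genotypes with MPTP was -0.0246 (limma voom).

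Without each library in turn, the estimate for MPTP in Cre- mice ran from -1.01 to 0.47 for H2-Ab1, -0.15 to 0.46 for Ciita, -0.0431 to 0.38 for H2-DMb1, -0.0695 to 1.51 for Rfxap and -0.19 to 0.063 for Rfx5. For MPTP in Cre+ mice it ran from -0.90 to 0.30 for H2-Aa, -1.12 to 0.0627 for H2-Ab1, -0.92 to 0.0405 for H2-Eb1, -0.61 to 0.26 for Cd74 and -0.00923 to 0.17 for H2-DMa. Between genotypes with MPTP it ran from -0.89 to 1.05 for H2-Ab1, -0.066 to 0.80 for Cd74, -0.0873 to 0.41 for H2-DMa, -0.20 to 0.0302 for Ifngr1 and -0.0283 to 0.23 for Rfx5. With saline it ran from -0.00154 to 0.58 for H2-Aa, -0.0318 to 0.27 for Cd74 and -0.31 to 0.0676 for H2-DMb1. The interaction ran from -1.20 to 0.75 for H2-Ab1, -0.17 to 1.14 for H2-Eb1, -0.18 to 0.69 for Cd74 and -0.35 to 0.26 for Ciita.

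Same-numbered libraries did not deviate together (r from -0.18 to 0.18), so the replicate number was not read as a pairing. The replicate block called 0 class II genes and ended the calls of Icosl (adjusted p = 0.0706) and Mrc1 (0.0722) for MPTP in Cre- mice and those of Mrc1, Clec10a, P2ry12 and Siglech between genotypes with MPTP (0.0673 to 0.142). Over all genes, calls for MPTP in Cre- mice numbered 616, against 1137 with DESeq2, 2624 with limma voom, 110 with the 2 groups alone, 1923 with both libraries out and 311 to 1812 without single libraries. Between genotypes with MPTP they numbered 299, against 834, 1224, 0, 557 and 41 to 1826, and 0 with the replicate block. In Cre+ mice they numbered 0, against 83, 294 and 15 with the first 3 alternatives, 9 without the filter 38 with both out and 0 to 5 without single libraries. With saline they numbered 0, against 2, 3 and 6. For the interaction they numbered 2, against 223 with DESeq2, 689 with limma voom, 10 without the filter, 220 with both out, 1 with RLE factors, 0 with the replicate block and 0 to 199 without single libraries. Low counts, 5 to 362 per class II gene and library, limit every estimate.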
